A study of Rattus norvegicus with 12 samples.

Results

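The genes described here encode the 3 Tgf-β ligands (Tgfb1, Tgfb2 and Tgfb3), their receptors (Tgfbr1, Tgfbr2 and Tgfbr3) and the 4 latent Tgf-β binding proteins (Ltbp1 to Ltbp4). They were chosen by gene symbol in the annotation of the array. Of these 10 genes, 9 were measured, among 14217 genes in all, through 12 of 31042 probe sets. Tgfbr2 was not analysed here, because no probe set is annotated with it as its only symbol. Where a gene had more than 1 probe set, the brightest by its mean log2 signal was used. The numbers given as gene IDs are those of NCBI Gene in the annotation. Transcripts were measured in bronchi of young male Wistar Han rats (Wistar in the labels), cut by laser from frozen lung sections, with 12 Affymetrix arrays in 3 groups. Fibrotic bronchi (3 arrays, numbered 3, 7 and 9) came from rats that had inhaled 200 ppm 2,3-pentanedione (PD), a component of artificial butter flavoring, for 2 weeks, and held intraluminal fibrous polyps or plaques with the wall beneath them. Non-fibrotic bronchi (3 arrays, numbered 4, 8 and 10) came from PD-exposed rats as well, in part the same animals, and were lined by normal-appearing or reactive epithelium. Control bronchi (6 arrays, numbered 1 to 6) came from rats that breathed filtered air. Which specimens came from which rat is not labelled, and the p-values do not allow for shared animals.

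Tgf-β is secreted in a latent form, in which the propeptide stays wrapped around the mature ligand and is usually linked to a latent binding protein that anchors the complex to fibrillin microfibrils of the matrix. Integrins and proteases release the ligand, which binds the type II receptor Tgfbr2. That receptor then phosphorylates the type I receptor Tgfbr1, which passes the signal to Smad2 and Smad3, and in airways the pathway is best known for driving fibroblasts to make matrix. Tgfbr3, or betaglycan, is a coreceptor that presents ligand, above all Tgf-β2, to the signalling receptors.

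The 3 members that passed the test between fibrotic and control bronchi were Tgfb2, Tgfbr1 and Ltbp2, and the 250 bases before their start sites are shown because these are the genes on which the comparison turns. The sequences are from RefSeq on the rat build GRCr8, and capitals mark the GC box GGGCGG, the site of Sp-family factors, or its complement CCGCCC.
Tgfb2, chr13:100792686-100792935, minus strand: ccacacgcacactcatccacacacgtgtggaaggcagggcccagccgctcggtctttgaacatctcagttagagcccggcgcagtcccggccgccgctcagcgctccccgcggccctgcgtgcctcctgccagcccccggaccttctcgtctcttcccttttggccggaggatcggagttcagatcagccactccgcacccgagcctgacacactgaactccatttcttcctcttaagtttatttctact
Tgfbr1, chr5:66449148-66449397, plus strand: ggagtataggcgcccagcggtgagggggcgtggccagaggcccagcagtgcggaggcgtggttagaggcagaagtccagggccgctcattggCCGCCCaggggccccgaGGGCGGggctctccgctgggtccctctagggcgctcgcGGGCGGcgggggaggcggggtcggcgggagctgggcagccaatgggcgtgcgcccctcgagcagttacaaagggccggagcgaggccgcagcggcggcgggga
Ltbp2, chr6:110257299-110257548, minus strand: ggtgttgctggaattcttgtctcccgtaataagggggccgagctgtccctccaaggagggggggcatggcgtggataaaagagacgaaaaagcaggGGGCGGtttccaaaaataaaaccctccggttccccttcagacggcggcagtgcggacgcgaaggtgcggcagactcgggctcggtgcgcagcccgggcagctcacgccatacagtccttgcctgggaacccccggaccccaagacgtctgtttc
The Tgfbr1 window was the richest in G and C of the 3 at 75.6%, against 61.6% in each of the other two and a median of 51.2% over 33465 rat promoters. It held 3 GC boxes, Ltbp2 held 1 and Tgfb2 held none, while 30.5% of all promoters held at least 1. GC boxes are not particular to these genes. The windows of Tgfbr3, Ltbp3 and Ltbp4, which were not called, held them too, at 71.2, 74.0 and 70.4% G and C. So did that of Tgfbr2 (58.0%), which was not analysed. The windows of Tgfb1 (60.0%), Tgfb3 (48.8%) and Ltbp1 (56.8%) held none. Another 4 motifs were searched on both strands. CAGACA, a Smad element found in 17.2% of all promoters, the AP-1 motif TGANTCA (6.34%) and the TATA motif TATAAA (12.9%) were in none of the windows of the 10 genes. The cyclic AMP element TGACGTCA (1.59%) was in 1 of them, that of Ltbp1, and overlapped no other motif searched. A match is a run of letters and not a bound site, and the windows without one say nothing of the factor.

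The captured tissue differed between the groups in its cell type markers. Summed signals of 6 ciliated cell markers were 2390 to 4324 in fibrotic, 35065 to 51897 in non-fibrotic and 37351 to 58596 in control bronchi. Those of 6 club cell markers were 6432 to 14073 in fibrotic, 34669 to 57880 in non-fibrotic and 39483 to 131502 in control bronchi. In fibrotic bronchi 5 of the 6 were called lower against control (limma adjusted p under 0.01), where 8.38% of all genes were. In non-fibrotic bronchi only Scgb3a1 was called, where 0.619% of all genes were. Its mean log2 signals were 2.00 in fibrotic, 5.97 in non-fibrotic and 12.70 in control bronchi (limma adjusted p = 7.8e-07 and 0.00161 against control). Both exposed means lie under the absent level of 6.52 given below. Scgb1a1 alone of the 6 was higher in non-fibrotic bronchi, at a log2 fold change of 0.65 (limma adjusted p = 0.178). Summed signals of 10 fibroblast markers were 63119 to 85823 in fibrotic, 36551 to 53670 in non-fibrotic and 30690 to 50739 in control bronchi, and those of 8 macrophage markers were 26211 to 44608 in fibrotic, 20882 to 28262 in non-fibrotic and 13371 to 22975 in control bronchi. Fibroblast and macrophage sums were thus higher and ciliated sums lower on every fibrotic array than on the control arrays. The macrophage sum leans on its brightest marker, Lyz2, with mean log2 signals of 14.37 in fibrotic, 14.39 in non-fibrotic and 13.59 in control bronchi. In non-fibrotic bronchi none of the 8 was called, where 0.619% of all genes were. There the log2 fold change was above 0 for 4, and Cd68 (-0.62), Csf1r (-1.52), Adgre1 (-0.93) and Cd14 (-0.84) were lower. The 10 smooth muscle markers summed to 13647 to 30015 in fibrotic, 24728 to 29810 in non-fibrotic and 10766 to 41965 in control bronchi, with overlap among all groups. Non-fibrotic bronchi stood above the controls in the summed signal of 7 markers of alveolar type II cells. The sums were 4751 to 50007 in fibrotic, 60309 to 81859 in non-fibrotic and 32462 to 54340 in control bronchi. Taken singly, none of the 7 passed a limma adjusted p under 0.01 there, where 0.619% of all genes did. Their log2 fold change was above 0 for 5, and Napsa (-0.67) and Abca3 (-0.25) were lower. The sums of 7 T cell markers were 4006 to 6292 in fibrotic, 810 to 2994 in non-fibrotic and 342 to 5566 in control bronchi, so fibrotic arrays were above the non-fibrotic ones but overlapped the controls. More cells of a type and more RNA per cell cannot be told apart in such tissue. The 3′ to 5′ signal of Gapdh, a sign of RNA quality, was 1.59 to 2.11 in log2 on fibrotic, 1.95 to 2.35 on non-fibrotic and 0.70 to 2.03 on control arrays. Controls 3 to 6 were at 0.70 to 0.90, control 1 at 1.16 and control 2 at 2.03, so every exposed array was above all controls but control 2. The same measure for actin overlapped (1.71 to 1.93 on fibrotic, 1.58 to 2.30 on non-fibrotic and 1.37 to 2.44 on control arrays). The part of RNA quality in the differences between groups was not tested. The array labels have 2 forms: those of controls 3 to 6 carry a sample name and the other 8 do not. On controls 1 and 2 the poly-A transcripts that are added to RNA as a check were at 2.31 and 2.33, against 8.02 to 11.06 on the other 10 arrays. Bacterial transcripts taken as not added to a sample reached a log2 signal of 6.52, which is used here as the level of an absent transcript. On controls 1 and 2 these include the poly-A transcripts, judged by their low signal and not by a label.

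In fibrotic bronchi Tgfb2, Tgfbr1 and Ltbp2 rose relative to controls, each between 2.65 and 2.99-fold, and no member fell. A probe set was called at a limma adjusted p under 0.01 over all probe sets, and 3 of the 9 measured members (all higher) passed, where 4.13% of all genes were called higher and 12.5% were called in either direction (9.39% of probe sets). The rise of Tgfb2 was reported before in the study of these samples, so it is not independent evidence. The median log2 fold change of the 9 members was 0.84, beside 0.10 over all genes. Every fibrotic array was above every control array for 5 members (Tgfb2, Tgfbr1, Ltbp1, Ltbp2 and Ltbp3), where this held for 15.1% of genes. In non-fibrotic bronchi none of the 9 members was called against control by limma, where 0.619% of genes and 0.522% of probe sets were called, and 1 of them had an unadjusted p under 0.05, where 27.7% of genes did. Their median log2 fold change was -0.15, beside 0.00 over all genes. Between fibrotic and non-fibrotic bronchi 2 members (Tgfbr1 and Ltbp2) were called, both higher, where 1.47% of genes were called higher and 5.3% (3.82% of probe sets) in either direction. Every fibrotic array was above every non-fibrotic array for 4 members (Tgfb1, Tgfb2, Tgfbr1 and Ltbp2), where 14.1% of genes behaved so. The comparisons share arrays, and the plot of fold changes sets them side by side.

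**Figure D1:**
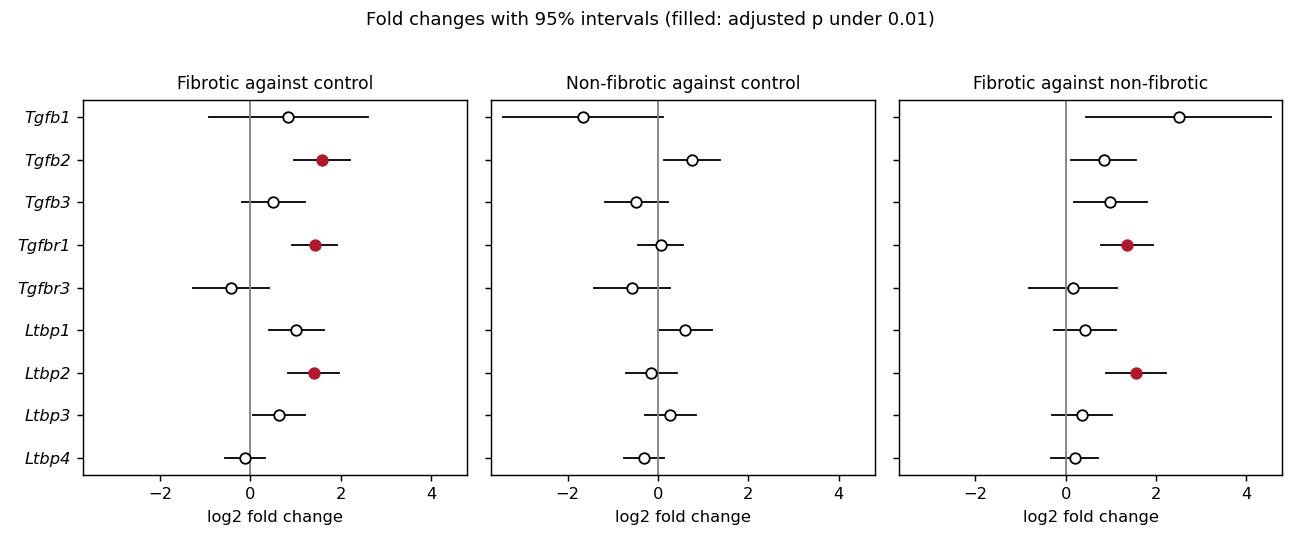
Log2 fold changes of the 9 measured genes (points) with 95% confidence intervals (lines) from the limma model, for fibrotic bronchi against controls (left), non-fibrotic bronchi against controls (middle) and the 2 kinds of exposed bronchi against each other (right), where filled points have an adjusted p under 0.01. The filled points are Tgfb2, Tgfbr1 and Ltbp2 on the left and Tgfbr1 and Ltbp2 on the right, none lies in the middle panel, and the widest intervals are those of Tgfb1.

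Among the ligands, Tgfb2 was the one that rose. Tgfb2 encodes Tgf-β2, a ligand that needs betaglycan for efficient binding in cells. Its log2 signal (gene ID 81809) was 9.97, 10.07 and 9.69 on the fibrotic arrays 3, 7 and 9, 9.13, 9.03 and 9.06 on the non-fibrotic arrays 4, 8 and 10, and 7.80, 8.26 and 9.06 as the lowest, median and highest of the controls. The fibrotic arrays stood above all others, and the non-fibrotic arrays lay within 0.10 of each other, at the level of the highest control and above the other 5 controls. Against control the log2 fold change was 1.58 (SE 0.29, adjusted p = 0.00128) in fibrotic bronchi and 0.75 (SE 0.29, 95% interval 0.13 to 1.37, adjusted p = 0.121) in non-fibrotic bronchi. Fibrotic bronchi were 0.84 above non-fibrotic bronchi (SE 0.34, 95% interval 0.12 to 1.55), a difference that did not pass the test (adjusted p = 0.142). A second, dimmer probe set read 8.59, 9.66 and 8.47 on the fibrotic arrays, 9.43, 7.70 and 7.24 on the non-fibrotic arrays and 6.49 to 7.99 on the controls. Its fibrotic arrays were also all above the controls, at a log2 fold change of 1.80 (SE 0.50, adjusted p = 0.0192), while its non-fibrotic arrays were spread widely. The call of Tgfb2 was lost with fibrotic replicate 7 left out (1.50, adjusted p = 0.0108), with controls 1 and 2 as the sole controls (1.34, adjusted p = 0.103) and with the form of the label as a block (1.34, adjusted p = 0.0271). The settings with controls 1 and 2 alone and with the label block share their estimate, because the label form varies only among the controls. They are not separate checks.

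Tgfb1, which encodes the ligand most often studied in fibrosis, passed no test here. Its log2 signal (gene ID 59086) was 8.08, 8.84 and 8.72 on the fibrotic arrays, 7.87, 2.74 and 7.50 on the non-fibrotic arrays, and 6.51, 7.82 and 8.44 as the lowest, median and highest of the controls. Fibrotic arrays overlapped the controls, and non-fibrotic array 8 and control 2 were below the level of an absent transcript. In fibrotic bronchi the log2 fold change was 0.84 (95% interval -0.92 to 2.61, adjusted p = 0.524), an interval wide enough to hold the change seen for Tgfb2. In non-fibrotic bronchi it was -1.66 (adjusted p = 0.215), and fibrotic bronchi were 2.51 above non-fibrotic bronchi (adjusted p = 0.122). Both of these values rest on array 8: without it they were -0.01 and 0.86 (adjusted p = 0.374), and with arrays under the absent level set to that level they were -0.40 and 1.25.

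Tgfb3 encodes Tgf-β3, the third ligand of the family. It had log2 signals (gene ID 25717) of 10.00, 10.34 and 10.84 on the fibrotic arrays, 10.05, 8.59 and 9.58 on the non-fibrotic arrays, and 9.38, 9.95 and 10.43 as the lowest, median and highest of the controls. All 3 groups overlapped, and none of the differences passed the test. Its log2 fold change was 0.51 (SE 0.33, adjusted p = 0.311) in fibrotic and -0.48 (SE 0.33, adjusted p = 0.364) in non-fibrotic bronchi, and fibrotic bronchi were 0.99 above non-fibrotic bronchi (adjusted p = 0.122). Without non-fibrotic array 8, which was the lowest of its group for 6 of the 9 members, the non-fibrotic change was -0.07 and the difference between fibrotic and non-fibrotic bronchi 0.58.

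**Figure D2:**
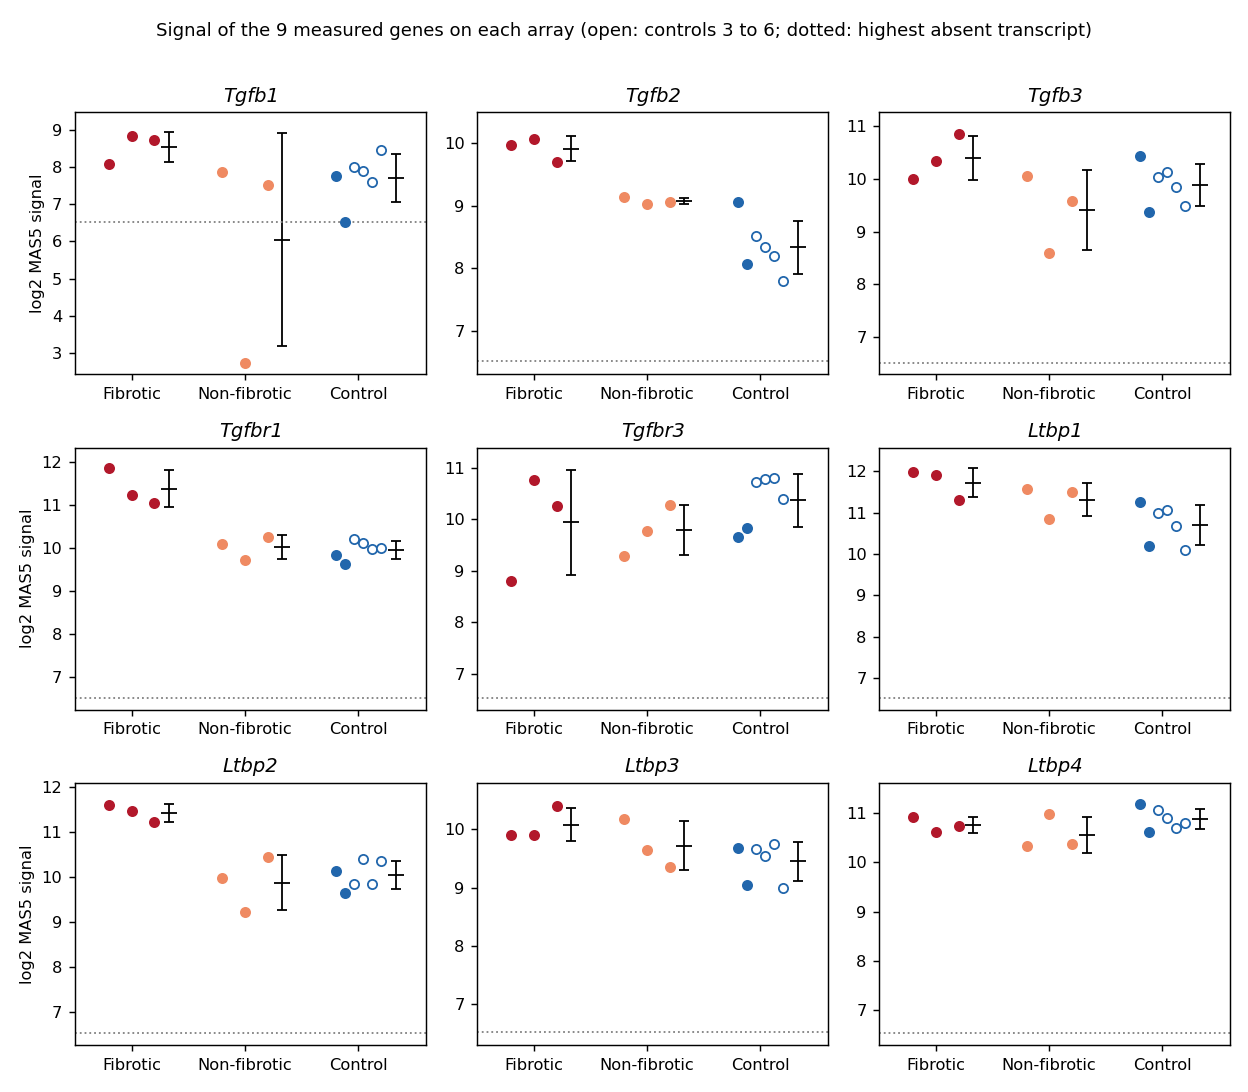
Log2 MAS5 signal of the 9 measured genes on each array, with fibrotic, non-fibrotic and control bronchi from left to right, the mean and SD beside each group (n = 3, 3 and 6), open points for controls 3 to 6 and a dotted line at the level of absent transcripts, 6.52. The fibrotic points of Tgfb2, Tgfbr1 and Ltbp2 stand clear of both other groups, and for Tgfb1 1 non-fibrotic point lies at 2.74, under the dotted line.

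Of the receptors, Tgfbr1 rose in fibrotic bronchi. Tgfbr1 encodes the type I receptor kinase that phosphorylates the Smads. Its log2 signal (gene ID 29591) was 11.87, 11.23 and 11.06 on the fibrotic arrays, 10.09, 9.72 and 10.27 on the non-fibrotic arrays, and 9.63, 10.00 and 10.22 as the lowest, median and highest of the controls. Every fibrotic array was above every other array, and the non-fibrotic arrays overlapped the controls. The log2 fold change was 1.42 (SE 0.23, 95% interval 0.92 to 1.91, adjusted p = 5.0e-04) in fibrotic and 0.06 (95% interval -0.44 to 0.55, adjusted p = 0.900) in non-fibrotic bronchi. The difference between fibrotic and non-fibrotic bronchi was itself called, at 1.36 (SE 0.27, adjusted p = 0.00472). The second probe set of Tgfbr1 read 8.38, 9.38 and 9.52 on the fibrotic arrays, 8.48, 8.15 and 7.87 on the non-fibrotic arrays and 7.65 to 8.63 on the controls. There fibrotic array 3 lay within the controls although it was the brightest array for the first probe set, and the log2 fold change was 0.90 (SE 0.34, adjusted p = 0.0812). Fibrotic array 3 also lay below non-fibrotic array 4 there, and the difference between fibrotic and non-fibrotic bronchi was 0.93 and not called (adjusted p = 0.162). With controls 1 and 2 as the sole controls the first probe set gave 1.65 (adjusted p = 0.0183). The difference between fibrotic and non-fibrotic bronchi was no longer called without fibrotic array 3 (1.12, adjusted p = 0.0312), fibrotic array 7 (adjusted p = 0.0125) or non-fibrotic array 8 (1.21, adjusted p = 0.0224).

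Tgfbr3, the betaglycan gene (gene ID 29610), passed no test, and its probe sets differed. The brighter one had log2 signals of 8.80, 10.77 and 10.26 on the fibrotic arrays, 9.29, 9.78 and 10.28 on the non-fibrotic arrays, and 9.65, 10.57 and 10.81 as the lowest, median and highest of the controls. All groups overlapped, with the lowest signal on fibrotic array 3. Its log2 fold change was -0.43 (SE 0.40, adjusted p = 0.495) in fibrotic and -0.58 (SE 0.40, adjusted p = 0.359) in non-fibrotic bronchi. Controls 1 and 2 averaged 9.74 and controls 3 to 6 averaged 10.68, and with the form of the label as a block the changes were 0.20 and 0.04. On the dimmer probe set every non-fibrotic array (9.48, 9.41 and 9.93) was above the highest control (9.26) without passing the test (0.69 in log2, adjusted p = 0.173), and the fibrotic arrays (8.01, 9.46 and 8.97) overlapped the controls. Against control, fibrotic bronchi were lower on both probe sets without passing the test (-0.43 and -0.10), whereas the non-fibrotic change was -0.58 on the brighter and 0.69 on the dimmer one, as the plot of genes with 2 probe sets shows.

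**Figure D3:**
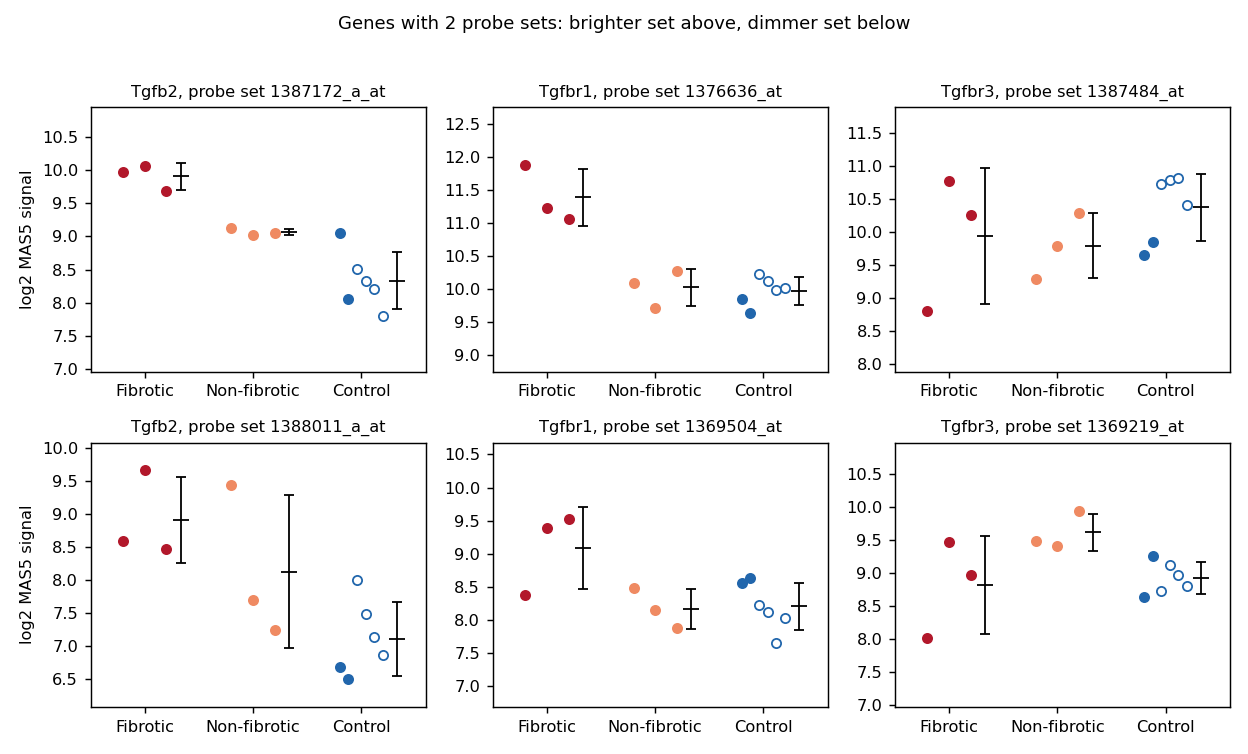
Log2 MAS5 signal on each array for the genes with 2 probe sets, the brighter set above and the dimmer set below, with fibrotic, non-fibrotic and control bronchi from left to right, open points for controls 3 to 6, and the mean and SD beside each group (n = 3, 3 and 6). Fibrotic points are above all control points on both probe sets of Tgfb2 and on the brighter set of Tgfbr1, and non-fibrotic points of Tgfbr3 are above all control points on the dimmer set alone.

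Among the latent binding proteins, Ltbp2 rose in fibrotic bronchi. Ltbp2 encodes the family member that does not bind latent Tgf-β and is a component of microfibrils. Its log2 signal (gene ID 59106) was 11.61, 11.48 and 11.23 on the fibrotic arrays, 9.98, 9.23 and 10.44 on the non-fibrotic arrays, and 9.65, 9.99 and 10.40 as the lowest, median and highest of the controls. Fibrotic arrays were above all others, and non-fibrotic arrays spread to both sides of the controls. The log2 fold change was 1.40 (SE 0.27, 95% interval 0.83 to 1.97, adjusted p = 0.00168) in fibrotic and -0.15 (95% interval -0.72 to 0.41, adjusted p = 0.743) in non-fibrotic bronchi. Fibrotic bronchi were 1.56 above non-fibrotic bronchi (SE 0.31, adjusted p = 0.00479). The call against controls was lost without fibrotic array 3 (1.32, adjusted p = 0.0142) or 7 (1.38, adjusted p = 0.0111), and with controls 1 and 2 as the sole controls (1.55, adjusted p = 0.0394). The call against non-fibrotic bronchi was lost without any one of fibrotic arrays 3, 7 and 9 (adjusted p = 0.0266, 0.0205 and 0.0101) or non-fibrotic array 8 (1.23, adjusted p = 0.0218).

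Ltbp1, which tethers latent Tgf-β to the matrix, showed no overlap between fibrotic and control arrays but did not pass the threshold. Its log2 signal (gene ID 59107) was 11.98, 11.90 and 11.31 on the fibrotic arrays, 11.57, 10.85 and 11.50 on the non-fibrotic arrays, and 10.10, 10.83 and 11.26 as the lowest, median and highest of the controls. The lowest fibrotic array was just above the highest control, and the non-fibrotic arrays overlapped both groups. The log2 fold change was 1.02 (SE 0.28, 95% interval 0.42 to 1.62, adjusted p = 0.0193) in fibrotic and 0.59 (SE 0.28, adjusted p = 0.192) in non-fibrotic bronchi. It was called without control replicate 1, the highest control (1.13, adjusted p = 0.00924).

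Ltbp3, which also binds latent Tgf-β, had log2 signals (gene ID 83838) of 9.91, 9.91 and 10.40 on the fibrotic arrays, 10.17, 9.64 and 9.35 on the non-fibrotic arrays, and 9.00, 9.61 and 9.75 as the lowest, median and highest of the controls. Its fibrotic arrays were all above the controls, and its non-fibrotic arrays overlapped both groups. Ltbp3 had a log2 fold change of 0.63 (SE 0.27, adjusted p = 0.123) in fibrotic and 0.27 (SE 0.27, adjusted p = 0.547) in non-fibrotic bronchi. Ltbp4, which in mice is needed for elastic fibres of the lung, had log2 signals (gene ID 292734) of 10.93, 10.61 and 10.74 on the fibrotic arrays, 10.34, 10.98 and 10.37 on the non-fibrotic arrays and 10.62 to 11.18 on the controls. Its groups overlapped, with a log2 fold change of -0.12 (95% interval -0.57 to 0.33, adjusted p = 0.738) in fibrotic and -0.32 (95% interval -0.76 to 0.13, adjusted p = 0.349) in non-fibrotic bronchi. These intervals leave out changes of the size measured for Ltbp2 in fibrotic bronchi.

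Over the 12 arrays Tgfbr1 and Ltbp2, whose non-fibrotic arrays lay around the controls, correlated with each other (Pearson r = 0.926), and Tgfb2 correlated most with Ltbp1 (r = 0.901) and less with Tgfbr1 (r = 0.781) and Ltbp2 (r = 0.690). These values describe arrays that share their groups and carry no test. Among 10524 genes with a mean above the absent level, the genes most like Tgfb2 were Slit3, a secreted guidance ligand (r = 0.980), and Fstl1, a secreted follistatin-like protein (r = 0.966). Those most like Tgfbr1 were Cox7a2l, a factor of respiratory supercomplexes (r = 0.976), and Myo5a, a vesicle motor (r = 0.968). Those most like Ltbp2 were Rab32, a small GTPase of organelle traffic (r = 0.968), and Eif3a, a subunit of a translation initiation factor (r = 0.952).

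Of 21 measured genes whose products hold Tgf-β latent, release it or bind it in the matrix, 7 rose and none fell against control, with a median log2 fold change of 1.27, beside 0.10 over all genes, and every fibrotic array was above the controls for 15 of them. Over all genes 4.13% were called higher and 15.1% had every fibrotic array above the controls. Those that rose were the integrin subunits Itgav, Itgb1 and Itgb3, the microfibril protein Fbn1, the proteases Mmp14 and Plat, and the proteoglycan Bgn. Of these, Itgb1, Itgb3, Fbn1, Mmp14 and Plat were reported as higher on these samples, so the count is not independent evidence of a direction. Fbn1, the fibrillin to which latent complexes attach, had a log2 fold change of 2.00 (SE 0.26, adjusted p = 5.7e-05), and Plat, the tissue plasminogen activator, 2.67 (SE 0.44, adjusted p = 5.2e-04). Itgb1 changed by 1.18 (SE 0.16, adjusted p = 1.2e-04) and Bgn by 1.63 (SE 0.23, adjusted p = 1.2e-04). In non-fibrotic bronchi none of the 21 was called (median -0.02), where 0.619% of all genes were called. Of the 21, 6 had an unadjusted p under 0.05, where 27.7% of all genes did. Fbn1, Itgb1 and Bgn were at 1.05, 0.88 and 0.99 there (adjusted p = 0.031, 0.0108 and 0.0253), and Plat was at 0.08. Against non-fibrotic bronchi 3 of the list were called, all higher in fibrotic bronchi (Itgb3, Plat and Nrros, which tethers latent Tgf-β on myeloid cells), where 1.47% of all genes were called higher.

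Of 8 measured partners of the receptors, 2 rose in fibrotic bronchi and none fell (median 0.92), where 4.13% of all genes were called higher. Fkbp1a, the immunophilin that binds the type I receptor and keeps it silent, had a log2 fold change of 1.30 (SE 0.22, adjusted p = 6.6e-04), and Pmepa1, a target gene whose product restrains Smad signalling, 1.20 (SE 0.25, adjusted p = 0.0031). Acvrl1 (Alk1) and Eng (endoglin), receptors of endothelial cells, were at 0.98 and 1.05 and were not called (adjusted p = 0.081 and 0.0929). Summed signals of 9 endothelial markers were 6789 to 7865 in fibrotic, 4047 to 6595 in non-fibrotic and 2701 to 6308 in control bronchi, and their part in these values was not tested. No partner was called in non-fibrotic bronchi by limma (median 0.21), where 0.619% of all genes were called. Of the 8, 1 had an unadjusted p under 0.05, where 27.7% of all genes did.

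Of 14 measured Smads and regulators of them, none rose in fibrotic bronchi and 1 fell, with a median log2 fold change of 0.32. Of all genes 4.13% were called higher and 8.38% lower, so a single fall among 14 is near that share. The gene that fell was Nedd4l, a ubiquitin ligase that marks activated Smads for degradation, with a log2 fold change of -2.82 (SE 0.35, adjusted p = 4.4e-05) against control and -2.57 (adjusted p = 9.6e-04) against non-fibrotic bronchi. Its mean log2 signal was 7.36 in fibrotic, 9.94 in non-fibrotic and 10.18 in control bronchi, and its fibrotic arrays lay below all others, as did those of the ciliated cell markers. The part of ciliated cells in it was not tested. Usp15, a deubiquitinase of the pathway, was at 1.12 (adjusted p = 0.0584), Tgif1, a Smad corepressor, at 0.55 (adjusted p = 0.0939) and Zfyve9, an anchor of Smads at the receptor, at -0.96 (adjusted p = 0.119). In non-fibrotic bronchi none of the 14 was called by limma (median 0.24), where 0.619% of all genes were called. Of the 14, 2 had an unadjusted p under 0.05, where 27.7% of all genes did.

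Of 18 measured transcriptional targets of Tgf-β, 7 rose in fibrotic bronchi and none fell (median 0.88), where 4.13% of all genes were called higher. They were Fn1, Tgfbi, Postn, Timp1, Tnc, Ccn2 and Col1a2, genes of the matrix and its turnover. Fn1, fibronectin, had a mean log2 signal of 12.94 in fibrotic, 9.45 in non-fibrotic and 8.15 in control bronchi, a log2 fold change of 4.79 against control (SE 0.62, adjusted p = 6.0e-05). Tgfbi, a matrix protein named for its induction by Tgf-β, was at 12.76 in fibrotic, 10.82 in non-fibrotic and 10.63 in control bronchi (fold change 2.13, SE 0.29, adjusted p = 9.6e-05), and Postn, periostin, at 12.69 in fibrotic, 9.16 in non-fibrotic and 8.79 in control bronchi (3.90, SE 0.60, adjusted p = 2.8e-04). Timp1, an inhibitor of metalloproteinases, was at 12.27 in fibrotic, 7.89 in non-fibrotic and 8.04 in control bronchi (4.22, SE 0.78, adjusted p = 0.00126). In non-fibrotic bronchi 1 target rose, the cell cycle inhibitor Cdkn1a, where 0.183% of all genes were called higher. Against non-fibrotic bronchi 5 were higher in fibrotic bronchi (Fn1, Tgfbi, Postn, Timp1 and Tnc), where 1.47% of all genes were. Several of these genes were reported as changed on these samples, so their counts are not independent evidence of a direction. Of the fibroblast markers, 4 of 10 rose in fibrotic bronchi (Col1a2, Pdgfra, Lum and Mfap5, median 1.54), of 8 macrophage markers 5 rose (median 3.21), of 10 smooth muscle markers none was called by limma (1 with an unadjusted p under 0.05), and all 6 ciliated markers fell (median -4.50). Beside these counts, 4.13% of all genes were called higher, 8.38% were called lower and 37.3% had an unadjusted p under 0.05. The part of these cell types in the rise of Tgfb2, Tgfbr1, Ltbp2 and the listed genes was not tested, and the lists share genes. Col1a1, Col1a2 and Col3a1 stand in both the target and the fibroblast list, and Acta2 and Tagln in the target and smooth muscle lists. Dcn stands in the list of genes that hold, release or bind Tgf-β and in the fibroblast list.

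**Figure D4:**
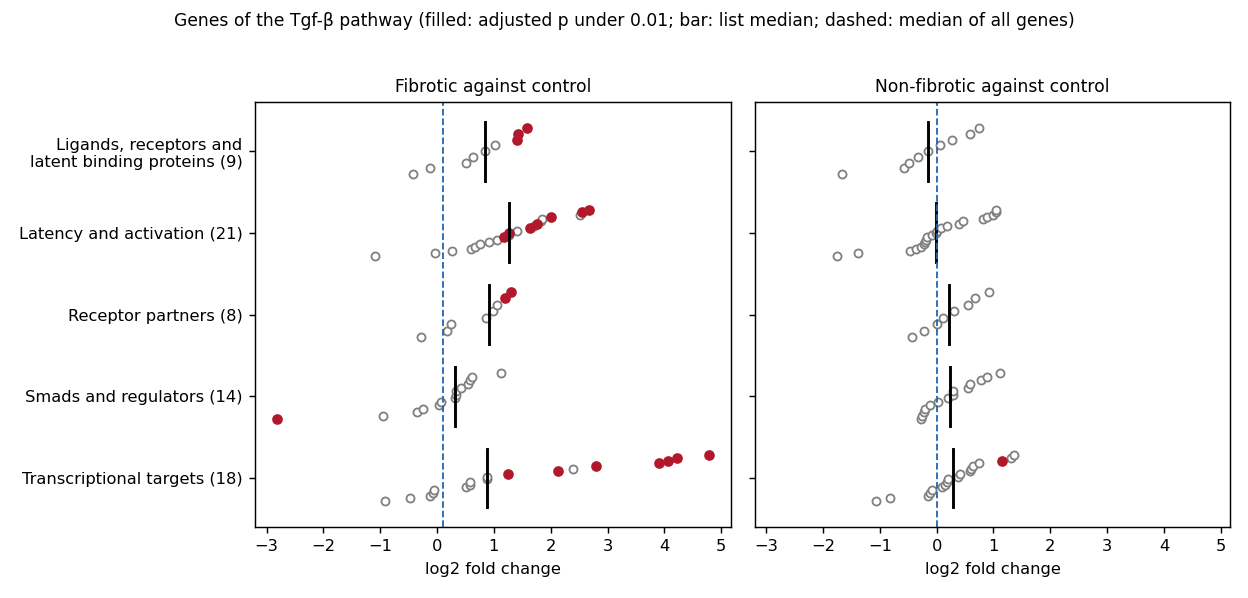
Log2 fold changes of the 9 measured members and of 4 lists of pathway genes (points, with the number of genes measured), for fibrotic against control bronchi on the left and non-fibrotic against control bronchi on the right; filled points have an adjusted p under 0.01, black bars are list medians and the dashed line is the median of all genes. On the left filled points lie to the right of the dashed line in all lists but the Smads, whose single filled point is Nedd4l at -2.82, and on the right the single filled point is Cdkn1a at 1.15.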

How the data were processed

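The authors processed the scanned arrays with MAS5 and deposited a linear intensity per probe set and array. On every array their trimmed mean (2% cut from each tail) is 500.1 to 500.2. RNA had been amplified before labelling. Detection calls and error weights were not used here. The MAS5 version is not given in the sources used here. Of 31099 probe sets, 57 Affymetrix controls were left out and 31042 tested without a filter: 20826 have 1 gene symbol, 436 several (not assigned) and 9780 none. The symbols are those of the platform annotation.

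Signals were taken to log2 with no pseudocount, and one model of the 3 groups was fitted with limma 3.58.1 in R 4.3.3, with eBayes following a trend over intensity, as a stand-in for the error-weighted ANOVA of the methods. Adjusted p-values are Benjamini-Hochberg values over all probe sets within a contrast, called under 0.01. The p-values behind them weigh a difference between groups against the spread between arrays. The methods' own software weights could not be used. The absent level is the highest of 84 values of bacterial transcripts taken as not added. Alternatives changed the threshold (adjusted p under 0.05, or unadjusted p under 0.001 with a fold over 2), the treatment of dim signals (dropping the lowest 40%, setting a floor at the 20th percentile, or adding 16 before log2), the normalization, the variance model, the arrays and controls in the fit, the form of the label as a block (statmod 1.5.0, consensus correlation 0.128 as a random block) and the probe set. Setting arrays under the absent level to that level was added after seeing the data. The model was tested on simulated data with independent normal noise on each array. That simulation held no shared animals, label sets or differences in RNA quality, so it does not bear on them. Depth does not apply to arrays, and their number limits the precision.

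The members and lists were chosen with earlier results of these data known. All members are named. From each pathway list any called gene and any gene shared with another list may be named, and at most the 4 with the smallest p in fibrotic against control bronchi have values. The 2 most correlated genes are given for each member that rose. Promoters are RefSeq windows of build GRCr8, matched by symbol for all 10 members. Figures were drawn with matplotlib 3.10.9.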

Additional observations from a re-analysis of the deposited data

Results flagged for a closer look

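Tgfbr1 and Ltbp2 are given here because their change against control differed between fibrotic and non-fibrotic bronchi. The fibrotic effect minus the non-fibrotic effect was 1.36 in log2 for Tgfbr1 (limma, adjusted p = 0.00472) and 1.56 for Ltbp2 (adjusted p = 0.00479), and all 3 fibrotic arrays were above all 3 non-fibrotic arrays for Ltbp2 and on the brighter probe set of Tgfbr1. On the second probe set of Tgfbr1 these arrays overlapped, and the difference was 0.93 and not called (adjusted p = 0.162). For Tgfb2 the same difference was 0.84 and did not pass (adjusted p = 0.142). No member had an outlying array in the control group, the one group large enough for that check (9 genes checked, of which chance flags about 1 in 20).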

How the results depend on the processing

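The 9 members in 3 comparisons gave 27 results, each computed under up to 29 alternatives, 747 in all. Of these, 702 kept the direction and the side of the threshold, 27 kept the direction and lost the call, 2 gained it (Ltbp1 in fibrotic against control bronchi, at the looser threshold and without control replicate 1) and 16 turned the direction. None of the 5 called results turned.

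Over the alternatives, with limma throughout, the log2 fold change in fibrotic against control bronchi was 1.34 to 1.80 for Tgfb2 (adjusted p 3.0e-04 to 0.103), 0.90 to 1.65 for Tgfbr1 (2.0e-04 to 0.0812) and 1.32 to 1.55 for Ltbp2 (4.6e-04 to 0.0394). In fibrotic against non-fibrotic bronchi it was 0.93 to 1.52 for Tgfbr1 (0.00266 to 0.162) and 1.23 to 1.84 for Ltbp2 (0.00278 to 0.038). Besides the losses given above, Ltbp2 against control lost its call without the intensity trend (0.0109), and between the exposed groups Tgfbr1 and Ltbp2 lost theirs without the trend (0.0264 and 0.0275), with array weights (0.017 and 0.038), with arrays of the 2 groups only (0.031 and 0.0247) and with controls 1 and 2 alone (0.0239 and 0.0201). Ltbp2 also lost it with the floor at the absent level (0.0131). The turned directions were those of Tgfbr3 in fibrotic against control bronchi (0.20 with controls 1 and 2 alone and with the label block, 0.15 without fibrotic replicate 3), in non-fibrotic against control bronchi (0.04 in both of those settings, 0.05 with the mean of its probe sets, 0.69 with the second) and in fibrotic against non-fibrotic bronchi (-0.26 without fibrotic replicate 7, -0.09 without non-fibrotic replicate 4, -0.32 with the mean, -0.79 with the second probe set). Tgfbr1 in non-fibrotic against control bronchi turned to -0.06 with controls 3 to 6 alone and without non-fibrotic replicate 10, to -0.01 without control replicate 2 and to -0.03 with the second probe set, and Ltbp2 to 0.17 without non-fibrotic replicate 8. With 1 array left out, Tgfbr3 ranged from -0.84 to 0.15 (fibrotic against control) and from -0.26 to 0.73 (fibrotic against non-fibrotic), Tgfbr1 from -0.06 to 0.21 and Ltbp2 from -0.43 to 0.17 (both non-fibrotic against control). The cause was not tested.

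Members called in fibrotic against control bronchi numbered 3. They numbered 4 at an adjusted p under 0.05, 2 without the intensity trend and with the label as a fixed block, and 0 with controls 1 and 2 alone. In fibrotic against non-fibrotic bronchi they numbered 2, or 0 without the intensity trend, with array weights, with arrays of the 2 groups only and with controls 1 and 2 alone, and 1 with the floor at the absent level. With 1 array left out they ranged from 1 to 4 and from 0 to 2, and stayed at 0 in non-fibrotic against control bronchi. Counts of all called probe sets were 2914 for fibrotic and 162 for non-fibrotic bronchi against controls, and 1185 between the 2 exposed groups. At an adjusted p under 0.05 they were 5541, 1811 and 2970. In fibrotic against control bronchi they were 4863 with array weights, 408 with controls 1 and 2 alone and 1337 with the label block. In non-fibrotic against control bronchi they were 892 at the threshold of an unadjusted p and a fold, 348 with the 20th percentile floor, 333 with the pseudocount, 282 after quantile normalization, 76 without the trend, 2 with controls 1 and 2 alone, 1016 with controls 3 to 6 alone, 38 and 58 with the label as a fixed and a random block, and 263 with the floor at the absent level. In fibrotic against non-fibrotic bronchi they were 504 without the trend, 610 with array weights, 292 with arrays of the 2 groups only, 514 with controls 1 and 2 alone and 784 with the floor at the absent level. With 1 array left out they ranged from 1718 to 3443, from 41 to 371 and from 598 to 1921.

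No paired analysis was possible because the labels do not say which fibrotic and non-fibrotic specimens came from the same rat. With 3 arrays in each exposed group, single arrays decide calls. The label form separates controls 3 to 6 from all exposed arrays, so a technical difference between these sets cannot be told apart from exposure. Controls 1 and 2 share the label form of the exposed arrays but not their poly-A signal (2.31 and 2.33, against 8.02 to 11.06 on the exposed arrays). Neither set of controls is thus matched to the exposed arrays in both respects.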

Other observations

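On the rat build GRCr8, some members lie on the same chromosome, with other genes between them. Ltbp2 and Tgfb3 lie on chromosome 6 with a gap of 1.17 megabases and 20 protein-coding genes between them, and Tgfb1 and Ltbp4 lie on chromosome 1 with a gap of 1.39 megabases and 30 genes between them. In fibrotic against control bronchi Ltbp2 was at 1.40 and Tgfb3 at 0.51 in log2. Tgfb1 was at 0.84 and Ltbp4 at -0.12, and the 95% interval of Tgfb1 (-0.92 to 2.61) holds the value of Ltbp4. Whether the genes of a pair differ was not tested.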
